A study of Mus musculus with 16 samples.

Results

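The comparison concerns dark zone (DZ) B cells of the germinal centre, 4 h after treatment of the animals with anti-CD40 or with an isotype control. Its members are the 4 libraries labelled anti-CD40 DZ and the 4 labelled isotype control DZ, 8 of the 16 in the series, compared across all genes. Every mouse was WT and the tissue was lymph node. The other 8 libraries come from light zone (LZ) cells under the same antibodies at the same time. The antibody dose, the mouse strain and age, the immunisation, the sorting gates and the number of mice are not given in the labels. Nothing says whether the 4 libraries of a group came from separate mice, so p-values measure only the spread between these samples, which may be technical.

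CD40 is a receptor of the TNF receptor family on B cells, and its ligand is displayed by helper T cells. Engaged CD40 recruits TRAF adaptors and the ubiquitin ligases cIAP1 and cIAP2, and it switches on the canonical and the alternative NF-kB pathways. In the germinal centre, B cells meet T cell help in the LZ, whereas DZ cells divide, mutate their antibody genes and are thought to receive little such help.

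The 4 isotype DZ libraries held 767736 to 1473415 counts and the 4 anti-CD40 DZ libraries 493131 to 1465643, and the group means did not differ detectably (two-sided exact permutation test, p = 0.8, with the same value after adjustment over 4 tests). Of the 9443 listed genes, 6824 had enough counts to be tested. Levels are given as CPM, a count scaled to the same total of tested-gene counts in every library with TMM factors, and 1 count stood for 0.651 to 2.05 CPM. The marker sums in this paragraph instead use CPM of the whole library total, without TMM factors. For 12 B cell and germinal centre markers the sum was 7203 to 9032 in isotype DZ and 6797 to 8368 in anti-CD40 DZ libraries. Of 15 T cell markers 3 were listed, with summed levels of 75.5 to 110.4 and 79.1 to 108 CPM. Of 17 myeloid markers 4 were listed, at 149 to 194 and 178 to 217 CPM, with Flt3 in first place. Of 13 stromal markers 4 were listed, at 34.0 to 65.1 and 35.8 to 57.2 CPM with Vwf at 0 after anti-CD40, and none of 8 red cell and platelet markers was. The part of these cells in the results was not tested. In bulk samples, fewer cells of a type and less RNA per cell cannot be told apart.

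Some libraries stood apart. Across the 16 libraries, those numbered 4 differed from the others in 2451 genes, 35.9% of those tested. Among the 8 DZ libraries the first principal component, with 46.6% of the variance, set isotype library 4 and anti-CD40 libraries 3 and 4 apart from the other 5. These 3 are also the shallowest DZ libraries. The next component, with 20.3%, separated the antibodies. For the genes described, a call that was lost without libraries numbered 4 or without the 3 shallowest is given with its value there.

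Anti-CD40 raised far more genes than it lowered in DZ cells. With edgeR's quasi-likelihood test and Benjamini-Hochberg adjustment, which gave every adjusted p below unless another test is named, 153 genes were higher (2.24% of those tested) and 10 were lower (0.147%), 163 in all (2.39%). Of the rises 115 were at least 2-fold, and of the falls 3 were. In 338 genes (4.95%) every anti-CD40 DZ library lay above every isotype DZ library, and in 164 (2.4%) every one lay below. Among the genes that passed, 145 of the 153 rises and all 10 falls had no overlap between the groups. The rises include 8 of 16 tested subunits and inhibitors of NF-kB, 4 of 23 survival and death genes, some ligands and receptors of T cell contact, Irf4 and Batf, Myc, and some genes of ribosome assembly. The median log2 change of all genes tested was -0.01.

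**Figure D1:**
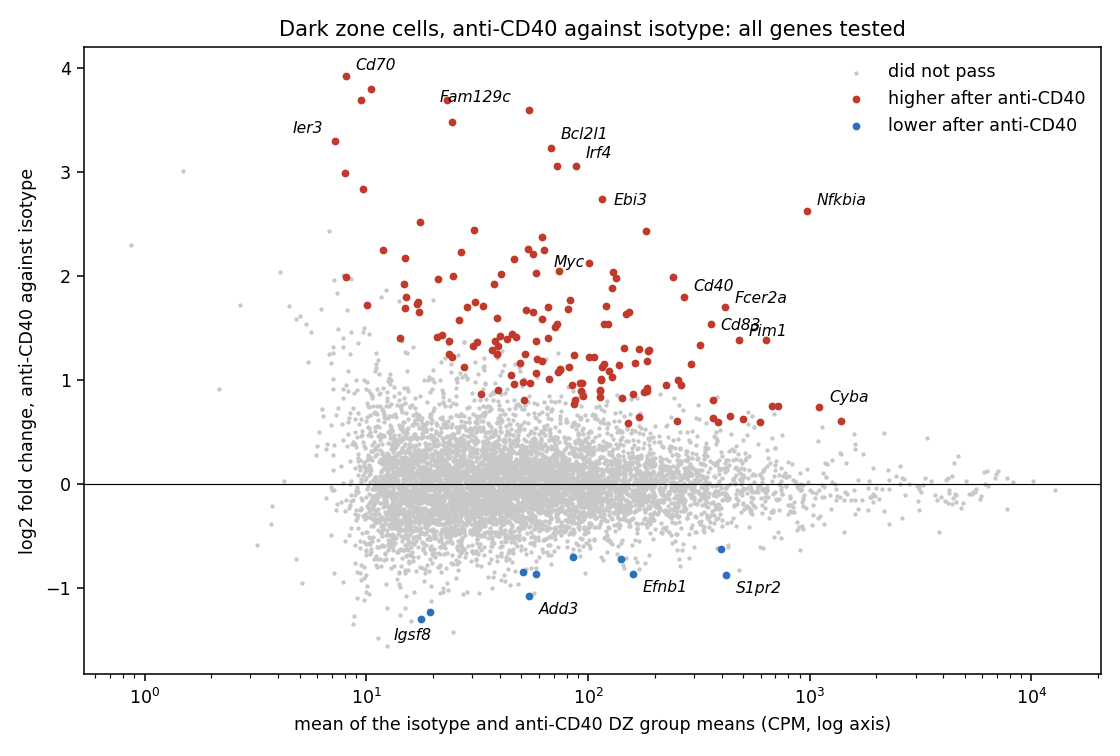
Log2 fold change after anti-CD40 in DZ cells (vertical axis) against mean level in CPM (horizontal log axis) for the 6824 genes tested, with 153 rises in red and 10 falls in blue. The largest rises (Cd70, 3.93) exceed the largest fall (Igsf8, -1.29) in size, and Nfkbia combines a high level with a large rise.

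The set of rises depended on which libraries were kept. Without libraries numbered 4 of all groups, 204 genes were higher and 18 lower, and 146 of the 163 calls were shared in direction. Without the 3 shallowest DZ libraries 90 were higher and 3 lower, with 88 shared. Without anti-CD40 DZ library 2, the deepest of its group, 98 were higher and none lower, with 554 genes at an unadjusted p under 0.05. Of the 153 rises, 87 passed without each of the 8 DZ libraries in turn, and none of the 10 falls did. The rises described below, up to the comparison with the LZ, passed in all 8 of those fits and without the 3 shallowest libraries, unless a sentence says otherwise.

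The receptor itself rose. Cd40 (chr2:165055627-165072948) stood at 122, 125, 111 and 124 CPM in isotype DZ libraries 1 to 4 and at 452, 476, 357 and 395 CPM in anti-CD40 DZ libraries 1 to 4. The isotype values were nearly equal, and each anti-CD40 value was well above all of them. The log2 fold change was 1.80 ± 0.14 (SE, n = 4 per group, adjusted p = 1.32e-07), and the exact permutation p was 0.0286 (two-sided), the smallest that 4 against 4 allows, or 0.0571 after adjustment over 4 tests. Birc3, which encodes cIAP2 (chr9:7848699-7873186), rose from 58.1, 50.7, 52.1 and 56.6 CPM to 237, 251, 212 and 156 CPM. The groups were far apart, with a log2 change of 1.98 ± 0.21 (adjusted p = 7.27e-06). Its neighbour Birc2, which encodes cIAP1 and starts 11634 bases beyond the end of Birc3 on the same strand, rose by 1.07 (adjusted p = 0.0493). The call of Birc2 was lost without any 1 of isotype libraries 1 to 4 or anti-CD40 libraries 2 and 4 (adjusted p of 0.073 to 0.253) and without the 3 shallowest (0.0765).

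Of 21 tested genes of CD40 and its signalling, 3 were higher (14.3%, beside 2.24% of all genes tested) and none lower. The median log2 change was 0.23. The rises are Cd40, Birc3 and Birc2, described above, and no other member of the list passed. Traf2 and Traf3, the adaptors that hold back the alternative pathway, had log2 changes of 0.07 and 0.32, and Map3k14, the kinase of that pathway, 0.12. None of these 3 passed. Tank (1.26, adjusted p = 0.0665) and Tnip1 (0.64, adjusted p = 0.0833), both regulators downstream of TNF receptors, missed the threshold.

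Of 16 tested genes that encode NF-kB subunits and their inhibitors 8 were higher (50%, beside 2.24% of all genes tested) and none lower. The median log2 change was 1.09, and the 8 kept their calls without each DZ library and without the 3 shallowest. The list was chosen with earlier results of these data known, so its count is a description. Nfkbia, which encodes the inhibitor IkBα that retains NF-kB in the cytoplasm and is itself a target of NF-kB (chr12:55489410-55492647), had the lowest adjusted p of all genes. It stood at 291, 289.8, 247 and 253 CPM in isotype libraries 1 to 4 and at 1750.0, 2149, 1224 and 1577 CPM in anti-CD40 libraries 1 to 4. Every anti-CD40 library was several times above the highest isotype library, and the log2 change was 2.63 ± 0.17 (adjusted p = 1.62e-08).

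Tnfaip3, which encodes the ubiquitin-editing enzyme A20, another brake on NF-kB, was low under isotype at 6.23, 6.08, 10.01 and 17.6 CPM. Anti-CD40 libraries held 54.7, 66.4, 48.3 and 34.8 CPM. Library 4 was the highest of the isotype and the lowest of the anti-CD40 libraries, and the groups still did not overlap (log2 change 2.44 ± 0.30, adjusted p = 4.86e-05). Among the other inhibitors, Nfkbid changed by 2.13 ± 0.20, Nfkbie by 1.65 ± 0.20 and Nfkbib by 0.89 ± 0.18 on the log2 scale. Bcl3, an atypical IkB protein that acts in the nucleus with p50 and p52, was at 29.1, 28.4, 30.04 and 26.4 CPM under isotype and at 87.5, 136, 111 and 141 CPM after anti-CD40. The isotype libraries were nearly equal, and the change was 2.05 ± 0.23 (adjusted p = 1.14e-05).

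The rises among the subunits fell on the pair of the alternative pathway. Nfkb2, whose product p100 is processed to p52, rose from 108, 80.0, 75.1 and 122 CPM to 301, 373, 356 and 510.0 CPM (1.99 ± 0.25, adjusted p = 7.28e-05). Its partner Relb rose from 42.9, 56.7, 54.1 and 72.9 CPM to 116, 224, 201 and 199 CPM (1.71 ± 0.22, adjusted p = 8.86e-05). Neither gene had overlapping groups. Of the canonical subunits none passed: Nfkb1 had a log2 change of 0.39 ± 0.26 (adjusted p = 0.722), Rela of 0.36 ± 0.21 (0.611) and Rel of 0.66 ± 0.24 (0.211). The Rel libraries did not overlap, at 23.3 to 40.2 CPM under isotype and 43.4 to 59.2 CPM after anti-CD40. The difference between the subunits was not tested.

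Promoter windows from RefSeq (GRCm38.p6), 250 bases before to 50 bases after the annotated start, were searched for the NF-kB (kB) consensus motif on both strands. Starts are those of RefSeq transcripts, and a gene with several windows counts as holding the motif if any of them does. A window was found for 118 of the 153 rises, and in 25 of them (21.2%) the motif was present, beside 672 of 5596 tested genes with a window (12%). In the list of NF-kB subunits and inhibitors the motif was in 8 of the 13 tested members with a window (61.5%), whether they rose or not. Of the 8 rises in this list 7 had a window and 6 of these held the motif. The following stretches are shown for the 5 of these 6 genes with a match before an annotated start, the sixth being Bcl3. Capitals mark the motif, each line is 5′ to 3′ on the gene's strand, and the first base of the motif lies 29 bases before the start in Nfkbia, 12 in Tnfaip3, 39 in Nfkb2, 181 in Nfkbid and 106 in Nfkbie.
Nfkbia (chr12:55492657-55492686, minus strand): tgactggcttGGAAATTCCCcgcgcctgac
Tnfaip3 (chr10:19015403-19015432, minus strand): aatttccatcGGAAATCCCCctgttggcaa
Nfkb2 (chr19:46304688-46304717, plus strand): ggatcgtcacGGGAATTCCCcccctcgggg
Nfkbid (chr7:30422215-30422244, plus strand): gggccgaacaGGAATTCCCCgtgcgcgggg
Nfkbie (chr17:45555584-45555613, plus strand): gcagcaaacaGGGGGATTCCggaggggcgg
The RefSeq start used lies 417 bases inside the GENCODE gene in Nfkb2, 674 in Nfkbid and 247 in Tnfaip3, so that these windows are not upstream of the gene's outermost start, and at or within 3 bases of the gene's start in Nfkbia and Nfkbie. In Nfkb2 the motif shown overlaps a match on the other strand that begins 1 base further on. The matches are letters in a window and do not show that the factor was bound.

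**Figure D2:**
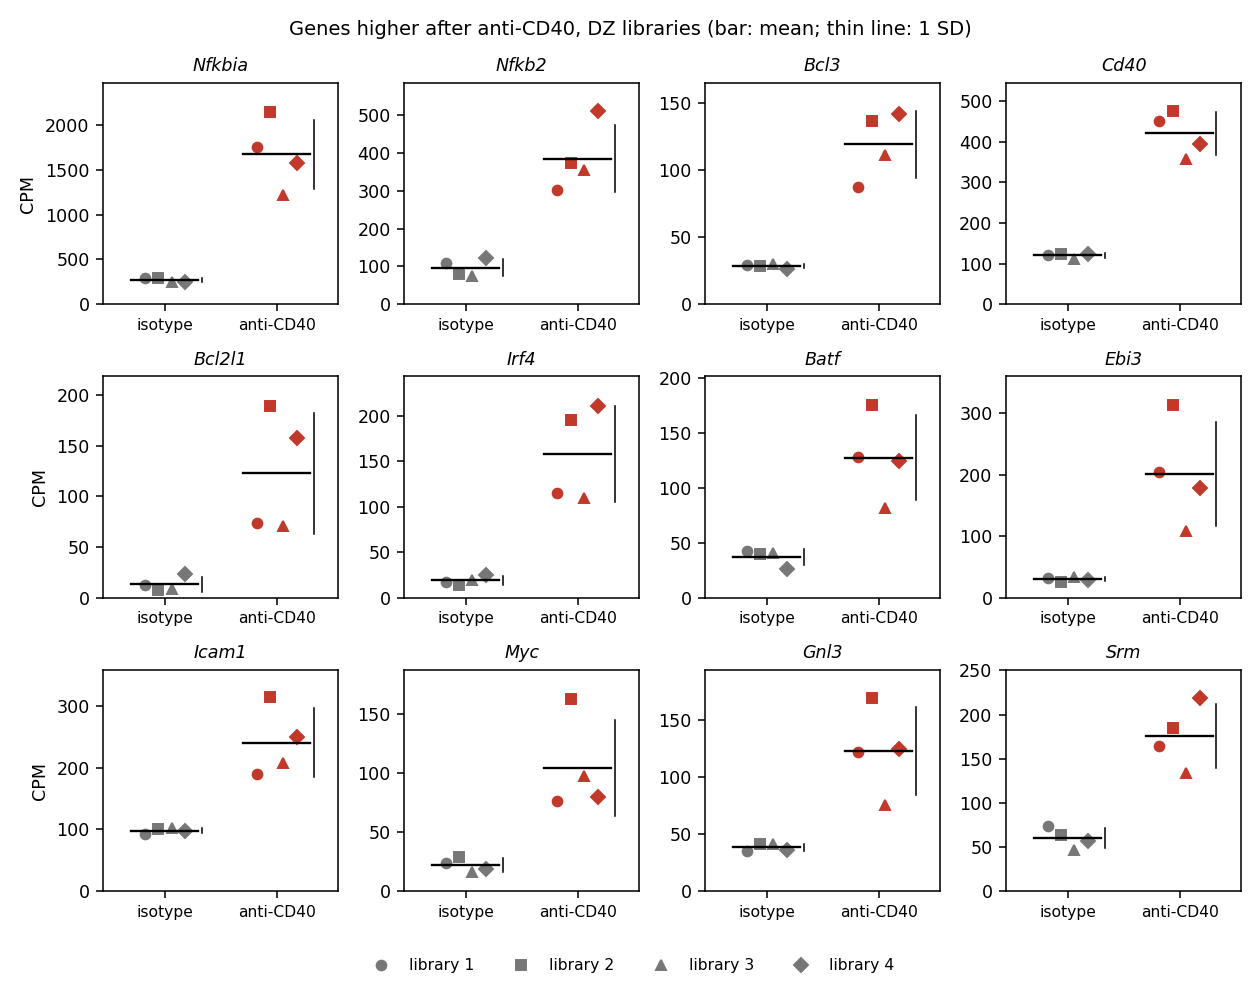
CPM of 12 genes in the 4 isotype (grey) and 4 anti-CD40 (red) DZ libraries, each symbol 1 library, with the mean as a bar and 1 SD as a thin line. The groups do not overlap in any of the 12 panels. In CPM the anti-CD40 libraries, whose means are higher, spread more widely than the isotype libraries, and spread relative to the mean was not compared.

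Of 23 tested survival and death genes 4 were higher (17.4%, beside 2.24% of all genes tested) and none lower. The median log2 change was 0.17. Bcl2l1, which encodes the anti-apoptotic protein Bcl-xL (chr2:152780668-152831728), was at 12.5, 8.10, 9.01 and 23.9 CPM under isotype. After anti-CD40 it was at 73.5, 189, 70.8 and 158 CPM. The spread among anti-CD40 libraries was wide, with libraries 1 and 3 below libraries 2 and 4, but the lowest was still above every isotype library (log2 change 3.23 ± 0.40, adjusted p = 5.66e-05). Bcl2a1b, a member of the A1 family of Bcl-2 proteins, rose from 23.5, 11.1, 20.03 and 25.1 CPM to 71.1, 106, 111 and 86.0 CPM (2.22 ± 0.30, adjusted p = 0.00016). Near-identical copies of Bcl2a1 exist in the mouse genome, so counts of this gene may include reads of the others. Ier3, an early response gene linked to survival, went from 1.0 to 1.38 CPM under isotype to 8.04 to 20.5 CPM after anti-CD40 (3.30 ± 0.63). Its isotype values rest on 1 or 2 counts per library. Bid, a pro-apoptotic member of the family, also rose, from 101 to 148 CPM to 197 to 290.3 CPM (0.89 ± 0.16, adjusted p = 0.00239).

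Of 19 tested genes for T cell contact, costimulation and adhesion 5 were higher (26.3%) and 1 lower, with a median log2 change of 0.51. Over all genes tested 2.24% were higher and 0.147% lower. Icam1, the ligand of the integrin LFA-1 (chr9:21015985-21028817), rose from 92.7, 101, 102 and 96.8 CPM to 191, 315, 208 and 249.9 CPM. The isotype libraries were close together and every anti-CD40 library was above them (1.30 ± 0.19, adjusted p = 0.000322). Cd83, a surface protein that stabilises MHC class II and marks LZ cells, rose from 208, 237, 172 and 116 CPM to 762, 563, 469.7 and 332 CPM (1.54 ± 0.30, adjusted p = 0.00502). Cd86, the ligand of CD28, stood at 53.3, 37.5, 34.0 and 31.4 CPM and then at 111, 98.9, 48.3 and 55.3 CPM. Library 3 after anti-CD40 fell below isotype library 1, and the change of 1.03 ± 0.30 did not pass (adjusted p = 0.0999). It passed without libraries numbered 4 (adjusted p = 0.0353) and without anti-CD40 library 3 (0.0421).

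Ligands of the TNF family that lie side by side on chromosome 17 rose together. Tnfsf9, the ligand of 4-1BB, went from 16.6, 15.2, 23.0 and 11.3 CPM to 46.1, 104, 38.6 and 115 CPM (2.17 ± 0.34, adjusted p = 0.000648). Cd70, the ligand of CD27 and 38239 bases away, was nearly undetected under isotype at 0.692, 2.03, 1.0 and 0 CPM. It reached 12.5, 29.3, 4.83 and 14.3 CPM after anti-CD40. The fitted log2 change was 3.93 ± 0.77 (adjusted p = 0.00558), but the isotype values rest on 0 to 2 counts per library, so its size is uncertain.

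Of 19 tested cytokines, cytokine receptors and other TNF family members 5 were higher (26.3%, beside 2.24% of all genes tested) and none lower. The median log2 change was 0.49. Ebi3, a subunit shared by IL-27 and IL-35, rose from 32.5, 26.3, 33 and 28.9 CPM to 205, 312, 108 and 178 CPM (2.74 ± 0.28, adjusted p = 4e-06). Il12a, which encodes the p35 chain that pairs with Ebi3 in IL-35, rose from 11.1, 11.1, 6.01 and 11.3 CPM to 49.2, 36.4, 53.1 and 18.4 CPM (2.0 ± 0.38, adjusted p = 0.0045). In both genes every anti-CD40 library was above every isotype library. Ifngr2, a chain of the interferon gamma receptor, rose from 24.3 to 36.5 CPM to 74.3 to 135 CPM (1.71 ± 0.22, adjusted p = 8.8e-05). Tnfrsf8, which encodes CD30, had a log2 change of 3.80 ± 0.88 on 0 to 3.77 CPM under isotype, and its call (adjusted p = 0.0206) was lost without any 1 of isotype libraries 1 to 3 or anti-CD40 library 2 (0.0673 to 0.109) and without the 3 shallowest (0.068). Without isotype libraries 1, 2 or 3 or anti-CD40 library 2, the count of this list fell to 3.

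Of 35 tested transcription factors of B cell fate 4 were higher (11.4%, beside 2.24% of all genes tested) and none lower. The median log2 change was 0.19. Irf4, which in B cells is induced by signals from CD40 and the antigen receptor and is required for plasma cell formation (chr13:30749226-30766976), rose from 17.3, 14.2, 19.0 and 25.1 CPM to 115, 195, 109 and 211 CPM. Every anti-CD40 library was several times above the highest isotype library (3.06 ± 0.26, adjusted p = 5.77e-07). Batf, a partner of IRF4 on DNA, rose from 42.2, 39.5, 41.1 and 26.4 CPM to 128, 176, 82.0 and 125 CPM (1.78 ± 0.27, adjusted p = 0.000587). The other members that passed, Stat6 (0.77, adjusted p = 0.0406) and Runx3 (1.13, adjusted p = 0.0403), lost their calls in 7 and 5 of the 8 fits without 1 DZ library (adjusted p up to 0.152 and 0.159) and without the 3 shallowest (0.349 and 0.152). Stat6 also lost its call without libraries numbered 4 (0.0531). Stat6 held its call without anti-CD40 library 1, and Runx3 without isotype library 4, anti-CD40 library 1 or anti-CD40 library 3. The count of this list was 2 to 6 when 1 library was left out. The repressors Bcl6 and Bach2, which keep B cells in the germinal centre state, did not pass. Prdm1, the plasma cell regulator, was not among the genes tested.

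Myc, the transcription factor named in the series title, rose in every anti-CD40 library. Myc (chr15:61985391-61990374) was at 23.5, 29.4, 16 and 18.9 CPM in isotype DZ libraries 1 to 4 and at 76.6, 163, 98.1 and 79.9 CPM in anti-CD40 DZ libraries 1 to 4. Library 2 was the highest of both groups, and the groups did not overlap. The log2 change was 2.26 ± 0.30 (adjusted p = 0.00011). The exact permutation p was again 0.0286, the smallest that 4 against 4 allows, or 0.0571 after adjustment over 4 tests. Ccnd2, which encodes cyclin D2, rose from 3.46, 1.01, 4.01 and 0 CPM to 10.9, 26.0, 9.65 and 22.5 CPM (2.83 ± 0.52, adjusted p = 0.00288). Ccnd3, the D cyclin on which DZ divisions depend, was far more abundant, at 678 to 759 CPM under isotype and 377, 350.2, 524 and 637 CPM after anti-CD40. Its groups did not overlap, but the change of -0.61 ± 0.18 did not pass (adjusted p = 0.0951). It passed without libraries numbered 4 (adjusted p = 0.0114), without the 3 shallowest (0.0178) and without anti-CD40 library 4 (0.0302).

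Of 44 tested genes of ribosome assembly and RNA polymerase I 13 were higher (29.5%, beside 2.24% of all genes tested) and none lower. A positive change was seen in 43, and the median was 0.69 beside -0.01 for all genes tested. Of the 13, 9 passed without each of the 8 DZ libraries and 7 without the 3 shallowest. Gnl3, which encodes the nucleolar GTPase nucleostemin, rose from 35.3, 41.5, 41.1 and 36.5 CPM to 122, 169.9, 75.6 and 125 CPM (1.69 ± 0.23, adjusted p = 0.00016). Nolc1, which encodes a chaperone of small nucleolar ribonucleoproteins, rose from 27.0, 16.2, 14 and 26.4 CPM to 42.2, 58.6, 57.9 and 63.5 CPM (1.38 ± 0.26, adjusted p = 0.00424). In both genes the groups did not overlap. Gar1, Nop16, Mrto4 and Nle1 were higher by 0.91, 1.13, 1.01 and 1.33 on the log2 scale. Fbl, Nop56 and Nop58, the core of the box C/D particle, had changes of 0.59, 0.69 and 0.86 and did not pass.

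Genes that serve the same steps, grouped after their values had been seen, are given as a description. Of 15 tested hosts of small nucleolar RNAs 5 were higher (33.3%, beside 2.24% of all genes tested) and all 15 had a positive change. Snhg15 (chr11:6525591-6528760) rose from 51.9, 43.6, 60.1 and 45.3 CPM to 181, 235, 138 and 281 CPM (2.04 ± 0.23, adjusted p = 1.55e-05), and Snhg5 from 98.3 to 125 CPM to 219.6 to 301 CPM (1.18 ± 0.16, adjusted p = 0.000115). Of 11 enzymes that modify tRNA or rRNA 5 were higher (45.5%) and all 11 had a positive change. Pus7, a pseudouridine synthase, rose from 5.07 to 9.0 CPM to 14.5 to 31.2 CPM (1.80 ± 0.31, adjusted p = 0.00197). Of these 5, 2 passed without each library in turn.

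Of all genes tested 2.24% were higher, a share that gives few calls or none in lists of the sizes below. Counts in the metabolic lists around these steps are a description, and the difference between lists was not tested. Srm, which encodes spermidine synthase and was the sole call among 28 genes of polyamine, nucleotide and one-carbon synthesis (median 0.33), rose from 73.4, 63.8, 46.1 and 56.6 CPM to 165, 185, 134 and 219 CPM (1.54 ± 0.22, adjusted p = 0.000322). No gene passed among 19 aminoacyl tRNA synthetases (median 0.38), 72 cytosolic ribosomal proteins (-0.04), 65 mitochondrial ribosomal proteins (0.03), 74 genes of the respiratory chain (-0.04), 12 of glycolysis (-0.02), 17 of cholesterol synthesis (-0.09) or 35 proteasome subunits (0.02). The sign of the cytosolic ribosomal, mitochondrial ribosomal, glycolysis, cholesterol and proteasome medians changed in at least 1 other scaling or leave-out fit. Rn45s, the 45S precursor of ribosomal RNA, was lower, from 536, 418, 447 and 537 CPM to 363, 239.5, 293 and 365 CPM (-0.62 ± 0.16, adjusted p = 0.0461). The groups did not overlap, but its call was lost without any 1 of the 8 DZ libraries (adjusted p of 0.0517 to 0.271) without the 3 shallowest (0.244) and without libraries numbered 4 (0.0609).

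The E box CACGTG, the palindromic motif that Myc binds with its partner Max, was found in 29 of the 118 rises with a promoter window (24.6%) beside 723 of 5596 tested genes (12.9%). Among the 13 rises of ribosome assembly it was in 2 (15.4%), beside 8 of the 38 tested members of that list with a window (21.1%). Matches that lie before the start are shown for a kinase, a lipase and an import chaperone that rose, with the motif in capitals and its first base 58 bases before the start in Pim1 and Timm9 and 44 in Mgll. The start used in Pim1 lies 2332 bases inside the GENCODE gene, that in Timm9 9 bases, and that in Mgll at its first base.
Pim1 (chr17:29493017-29493042, plus strand): aaacaggaatCACGTGgtctgaaacc
Timm9 (chr12:71136718-71136743, minus strand): tacattttccCACGTGgtaacgaatc
Mgll (chr6:88724358-88724383, plus strand): gggccgggcaCACGTGgggccccggc
Pim1, a survival kinase that cooperates with Myc in lymphoid tumours, rose from 229.8, 225, 282 and 326 CPM to 502, 671, 758 and 852 CPM (1.39 ± 0.19, adjusted p = 0.0002). Timm9, a chaperone of mitochondrial protein import, rose from 40.2 to 49.8 CPM to 72.4 to 119 CPM (1.08 ± 0.19, adjusted p = 0.00197). Mgll, which encodes monoacylglycerol lipase, rose from 4.84, 3.04, 3.0 and 3.77 CPM to 28.9, 43.6, 35.4 and 71.7 CPM (3.48 ± 0.36, adjusted p = 5.93e-06). None of the 3 had overlapping groups, which for Mgll was a condition of being named.

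**Figure D3:**
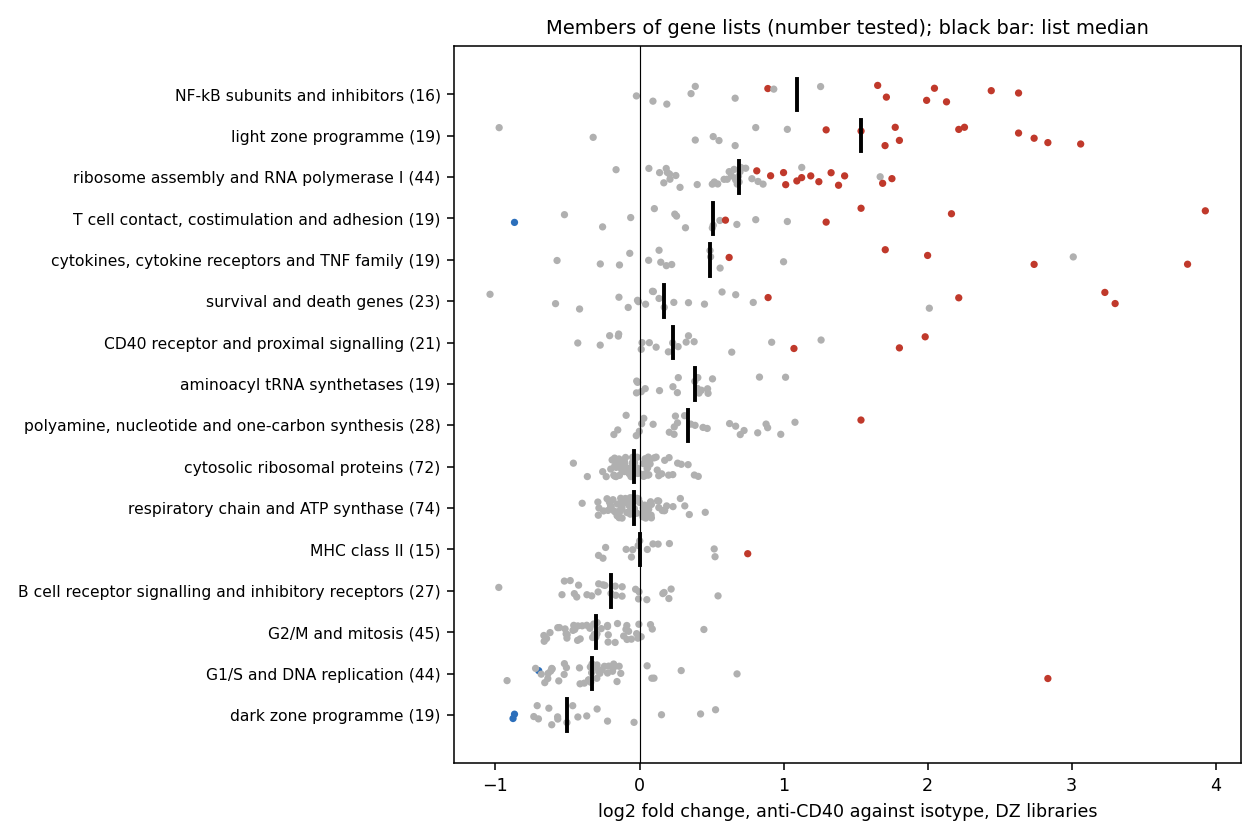
Log2 fold change after anti-CD40 in DZ cells for each tested member of 16 gene lists (points, with the number of members in parentheses), red for higher, blue for lower and grey for genes that did not pass, with black bars at the list medians. Lists of NF-kB, LZ and ribosome assembly genes have medians of 1.09, 1.54 and 0.69, while the DZ list lies at -0.50.

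Of 19 tested genes of the LZ programme 11 were higher (57.9%, beside 2.24% of all genes tested) and none lower. The median log2 change was 1.54, and all 11 passed without each library in turn. They are Cd83, Cd40, Nfkbia, Bcl2a1b, Myc, Batf, Irf4, Ebi3, Icam1, Fcer2a and Ccnd2, most of them described above. Fcer2a, which encodes the low-affinity IgE receptor CD23, rose from 200.01, 178, 229 and 168 CPM to 577, 758, 539 and 657 CPM (1.70 ± 0.14, adjusted p = 5.77e-07). All anti-CD40 libraries were far above all isotype libraries. Egr1, an immediate early gene of antigen receptor signalling and also in the list, had a change of -0.97 (adjusted p = 0.0754).

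Of 19 tested genes of the DZ programme 2 were lower and none higher, with a median of -0.50 and 16 negative changes. Over all genes tested 0.147% were lower, and the median was -0.01. S1pr2, the receptor that confines B cells to the follicle (chr9:20962361-20976781), fell from 511, 509, 659 and 497 CPM to 290.0, 281, 333 and 281 CPM. The anti-CD40 libraries were close together and far below every isotype library (-0.88 ± 0.18, adjusted p = 0.00937). The call was lost without isotype library 3 (adjusted p = 0.0563), without anti-CD40 library 2 (0.0537) and without the 3 shallowest (0.0599). Efnb1, which encodes ephrin B1, a regulator of contacts with T cells (chrX:99136130-99148991), fell from 206, 184, 193 and 234 CPM to 87.5, 97.0, 139.95 and 129 CPM. Its groups were also apart (-0.87 ± 0.18, adjusted p = 0.00726), and its call was lost without anti-CD40 library 2 (0.0655). Under isotype the level of Efnb1 was similar in the zones, at 204 ± 21.6 CPM in DZ and 197 ± 25.9 CPM in LZ libraries (mean ± SD).

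Cxcr4, Bcl6, Bach2 and Foxo1, all known for roles in the DZ or the germinal centre state, did not pass. Cxcr4, the receptor that holds cells in the DZ, was at 181, 182, 181 and 389.7 CPM and at 105, 204, 270.3 and 473 CPM (0.15 ± 0.44, adjusted p = 0.979). Bcl6 was at 402, 413, 484 and 156 CPM and at 270.4, 391, 154 and 129 CPM (-0.60 ± 0.41, adjusted p = 0.722). Library 4 was the lowest for Bcl6 and the highest for Cxcr4 in both groups, and the groups overlapped in both genes. Without libraries numbered 4 the adjusted p was 0.166 for Bcl6 and 0.929 for Cxcr4. Bach2 was at 233, 215, 125 and 231 CPM and at 195, 113, 246 and 137 CPM (-0.23 ± 0.27, adjusted p = 0.909), with overlap between the groups. Foxo1, which is required for the DZ state, barely differed, at 132 to 141 CPM and 117 to 156 CPM (-0.04 ± 0.17, adjusted p = 0.984).

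**Figure D4:**
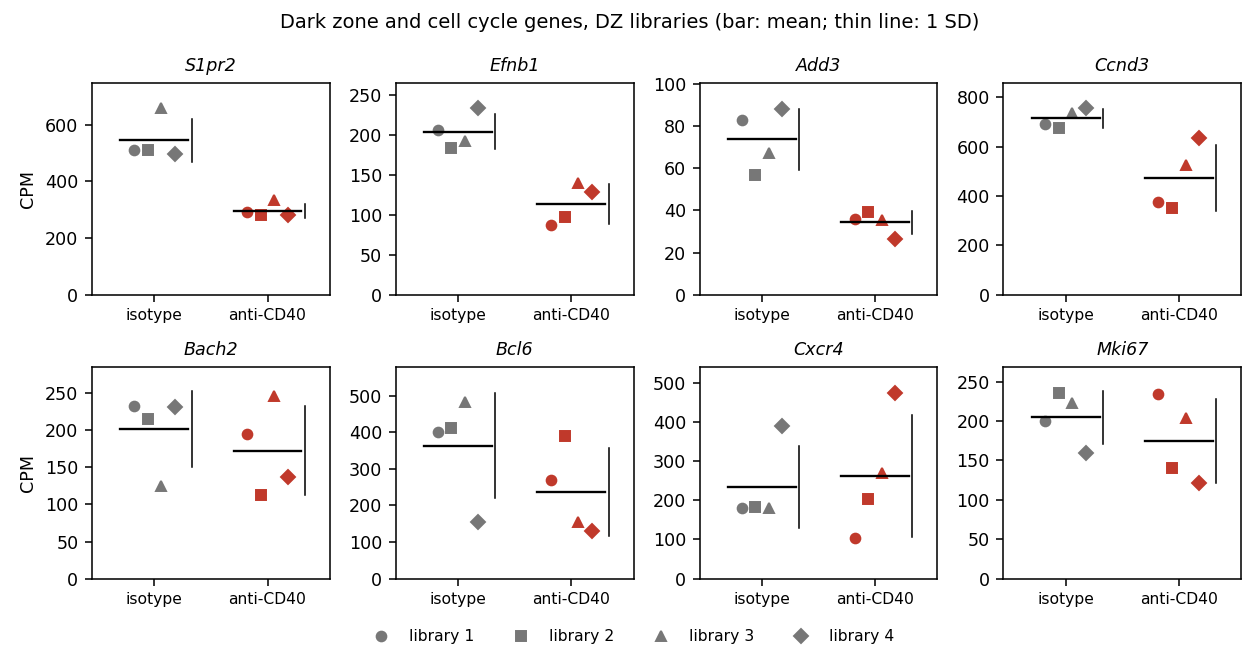
CPM of 8 genes of the DZ programme, cell cycle and cytoskeleton in the isotype (grey) and anti-CD40 (red) DZ libraries, with the symbol giving the library number, the bar the mean and the thin line 1 SD. S1pr2, Efnb1, Add3 and Ccnd3 separate by antibody, whereas Bach2, Bcl6 and Cxcr4 overlap, and library 4 is at an extreme of each group for Bcl6 and Cxcr4.

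Most cell cycle genes tested had negative changes, and 1 of them passed as lower. Of 44 tested genes of G1/S and DNA replication 1 was higher (Ccnd2) and 1 lower. The 2.27% higher stand beside 2.24% of all genes tested, a share that gives few calls or none in lists of this size. In this list 38 changes were negative, and the median was -0.33 beside -0.01 for all genes tested. Gins2, a subunit of the replicative helicase, was at 84.1 to 115 CPM under isotype and 51.5 to 78.9 CPM after anti-CD40 (-0.70 ± 0.18, adjusted p = 0.0486). None of 45 genes of G2/M and mitosis passed, with 41 negative changes and a median of -0.30, and Mki67 was at 159.7 to 236 CPM and 121 to 234 CPM (-0.22 ± 0.26, adjusted p = 0.907). No gene of antigen receptor signalling passed either, of 27 tested (median -0.20).

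The other falls were few and of modest size. Add3, a component of the actin and spectrin skeleton, fell from 83.0, 56.7, 67.1 and 88.0 CPM to 36.0, 39.1, 35.4 and 26.6 CPM (-1.08 ± 0.24, adjusted p = 0.0153), a call lost without any 1 of isotype libraries 1 and 4 or anti-CD40 libraries 2 and 4 (0.0531 to 0.0717). Igsf8, an immunoglobulin superfamily protein that associates with tetraspanins, fell from 21.5, 28.4, 22.03 and 27.7 CPM to 7.82, 9.11, 12.9 and 12.3 CPM (-1.29 ± 0.28, adjusted p = 0.0134), a call lost without isotype library 2 or anti-CD40 libraries 1 or 2 (0.0577 to 0.0941). In both genes every anti-CD40 library lay below every isotype library. The rest were Fgf11, Dnajb1, Cep250, Lbh and, above, Gins2 and Rn45s, with log2 changes from -1.23 to -0.62. Gins2, Fgf11 and Lbh each lost their call in 6 of the 8 fits without 1 DZ library, Dnajb1 in 7 and Cep250 in 4 (adjusted p up to 0.253). Without the 3 shallowest libraries none of these 5, nor Add3 (0.25) or Igsf8 (0.0553), passed. None of the 5 passed without libraries numbered 4 either, with adjusted p from 0.0687 for Dnajb1 to 0.142 for Lbh.

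Rises outside the lists were of varied function. Of the 153 rises 56 were in a list and 97 in none. Fam129c, a B cell protein of the Niban family (chr8:71597648-71607936), rose from 11.1, 5.07, 6.01 and 10.1 CPM to 71.1, 134, 69.2 and 129 CPM (3.60 ± 0.32, adjusted p = 9.29e-07). Siah2, a ubiquitin ligase, rose from 58.8, 78.0, 39.1 and 51.5 CPM to 282, 426, 219 and 303 CPM (2.44 ± 0.24, adjusted p = 2.58e-06). Jade2, a scaffold of histone acetyltransferases, and Slc2a6, a sugar transporter, rose by 2.37 ± 0.24 and 2.26 ± 0.23. These 4 genes were named among the largest changes with no overlap between the groups, so its absence was a condition of naming them. Among genes of lower level, named after their values were seen, Snai1, a zinc finger repressor, rose from 2.08, 0, 2.0 and 0 CPM to 14.1, 13.0, 17.7 and 26.6 CPM (3.69 ± 0.67, adjusted p = 0.00266), a fold that rests on 0 to 3 counts per isotype library. Ankrd33b rose from 0.692 to 3.0 CPM to 8.04 to 20.2 CPM (2.99 ± 0.55, adjusted p = 0.00356), on equally few. Among 31 genes of cytoskeleton and membrane shape 3 were higher (9.68%, beside 2.24% of all genes tested) and 1 lower. Carmil3, a regulator of actin capping, was at 1.26 to 5.07 CPM and then 21.9 to 69.6 CPM (3.70 ± 0.55). Fscn1, the actin bundler fascin, was at 5.07 to 30.2 CPM and then 42.2 to 213 CPM (3.06 ± 0.58). Tspan33 was at 2.03 to 9.0 CPM and then 17.98 to 50.8 CPM (2.52 ± 0.42).

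Further groups were noticed after their values had been seen. Of 7 tested subunits of the phagocyte NADPH oxidase, which makes superoxide, 3 were higher (42.9%, beside 2.24% of all genes tested). Cybb, its catalytic subunit, rose from 201, 168, 168 and 185 CPM to 427, 442, 335 and 401 CPM (1.15 ± 0.18, adjusted p = 0.000507). Cyba, the partner of Cybb in the membrane, rose from 894, 842, 790.1 and 786 CPM to 1429, 1329.8, 1234 and 1532 CPM (0.74 ± 0.13, adjusted p = 0.00266), a call lost without the 3 shallowest libraries (0.0686). The third, Ncf1, lost its call (adjusted p = 0.0221) without isotype libraries 1, 2 or 3 or anti-CD40 libraries 2 or 4 (0.0793 to 0.108) and without the 3 shallowest (0.0519). All 3 were without overlap between the groups.

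On chromosome 10 the neighbouring genes Ddt, Gstt1 and Gstt2, which encode a tautomerase and glutathione transferases, rose. Beside them lies Mif, a tautomerase gene related to Ddt, which had a log2 change of 0.67 ± 0.19 (adjusted p = 0.0766), and no other gene from Ddt to Mif was tested. Gstt1 went from 15.9, 8.10, 3.0 and 8.80 CPM to 36.7, 56.6, 25.7 and 59.4 CPM (2.24 ± 0.40, adjusted p = 0.00239), Gstt2 from 75.4 to 105 CPM to 159 to 248 CPM (1.14 ± 0.18) and Ddt from 135 to 210.4 CPM to 246 to 399 CPM (0.96 ± 0.18). The genes are separated by 10398 and 32529 bases and lie on the same strand, and the Gstt genes are related in sequence, so reads could be split between them. Among the 163 genes that passed, 13 pairs of neighbours lay within 100 kb of each other. One of these is S1pr2 and Icam1, 39203 bases apart on opposite strands, which changed in opposite directions. Such pairs were not counted over all genes tested, so the 13 are a description.

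Single rises stood in lists with no other rise, and those of the lists named here were lost without some single libraries. They make 5.26% to 6.67% of these lists, each from 1 gene, beside 2.24% of all genes tested. Cxcr5, the receptor that guides B cells into follicles and the sole rise among 19 genes of positioning and egress, was at 266, 264, 304 and 312 CPM under isotype and at 384, 513, 368 and 522 CPM after anti-CD40 (0.64 ± 0.14, adjusted p = 0.0148). The groups did not overlap, and the call was lost without isotype libraries 1 or 2 or anti-CD40 libraries 2 or 4 (0.066 to 0.0914) and without the 3 shallowest (0.0857). Irf1, a transcription factor of interferon responses and the sole call among 17 interferon genes, was at 49.1, 53.7, 65.1 and 61.6 CPM and at 95.4, 120.4, 105 and 125 CPM (0.96 ± 0.22, adjusted p = 0.0221). It too had no overlap, and its call was lost without the same 4 libraries (0.065 to 0.108) and without the 3 shallowest (0.17). Among 15 genes of MHC class II and its loading Ifi30, a thiol reductase of antigen processing, was the sole call, at 407 to 656 CPM and then 724 to 1075 CPM (0.75 ± 0.19, adjusted p = 0.0376). Its call was lost without isotype libraries 2, 3 or 4 or anti-CD40 libraries 1 or 2 (0.0528 to 0.125) and without the 3 shallowest (0.0857). H2-K2, an MHC class I gene noticed after its value was seen, rose from 22.3 to 44.0 CPM to 74.0 to 109 CPM (1.59 ± 0.26, adjusted p = 0.00103), and it has a near-identical neighbour in H2-K1, so reads could be split between them.

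The same contrast in LZ cells, which shares no library with the DZ contrast, passed 740 genes as higher (10.8%) and 562 as lower (8.24%). Both contrasts came from 1 fit with a shared estimate of the spread. Whether DZ and LZ libraries came from the same mice is not given in the labels. Of the 153 DZ rises 134 (87.6%) also rose in the LZ, which is 18.1% of the LZ rises, and 19 did not pass there. Of the 10 DZ falls 7 also fell in the LZ and 3 did not pass. No DZ call had a call of opposite direction in the LZ. The median log2 change of the 153 genes was 1.38 in the DZ, where the genes were selected, and 1.45 in the LZ. A direct test of the zone difference passed 1 gene (0.0147%), with 586 at an unadjusted p under 0.05, and that gene was no member of the 163. Among the 163 the lowest adjusted p for a zone difference was 0.113, for Efnb1, which fell by 0.87 in the DZ and by 2.27 in the LZ. With replicate number as a block, edgeR passed 6 of the 163 for a zone difference. They were Efnb1 and Cyb561a3 (adjusted p = 0.00176 each), Nhp2 (0.00381), S1pr2 and Bcl3 (0.0141 each) and Cybb (0.0464). Cyb561a3 changed by 0.98 in the DZ and by -0.51 in the LZ, where it did not pass. The DZ call of Cyb561a3 was lost in at least 1 fit without a single DZ library. DESeq2 passed 38 genes for the zone difference.

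**Figure D5:**
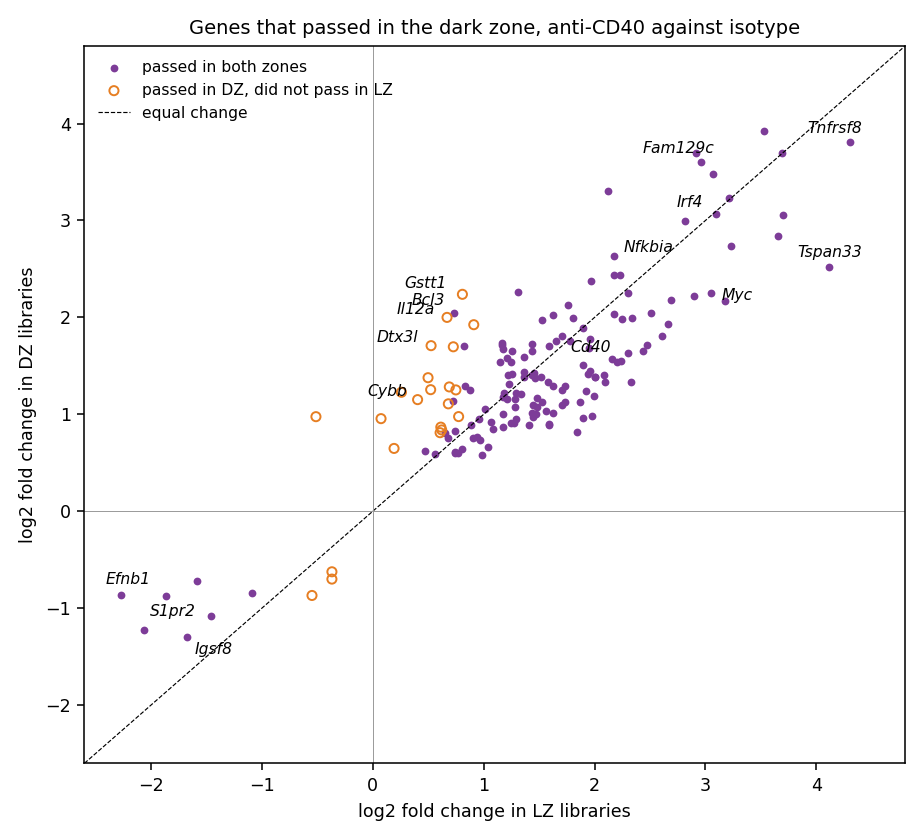
Log2 fold change after anti-CD40 in DZ libraries (vertical axis) against that in LZ libraries (horizontal axis) for the 163 genes that passed in the DZ, purple where the gene also passed in the LZ and orange circles where it did not, with a dashed line at equal change. All purple points share their sign between zones, and Gstt1, Il12a, Cybb and Dtx3l are among the circles. The DZ call of Dtx3l was lost without isotype DZ library 1 or 2 (edgeR, adjusted p = 0.0525 and 0.0527).

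None of the genes that passed in the DZ and not in the LZ passed the test of the zone difference in the fit without the block. Il12a changed by 2.0 in the DZ and by 0.67 in the LZ (adjusted p = 0.266), with a zone difference at adjusted p = 0.492. Cybb changed by 1.15 and by 0.40 (adjusted p = 0.119), with a zone difference at 0.355. Gstt1 changed by 2.24 and by 0.81 (adjusted p = 0.152), with a zone difference at 0.463. Bcl3 passed in both zones, by 2.05 in the DZ and 0.73 in the LZ, with a zone difference at 0.202. When replicate number entered as a block, that test passed for Bcl3 (adjusted p = 0.0141) and Cybb (0.0464) and not for Gstt1 (0.121) or Il12a (0.135).

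The level that DZ cells reached can be set beside that of LZ cells under isotype. In 144 of the 153 rises the isotype LZ mean was above the isotype DZ mean, and in 144 the anti-CD40 DZ mean was above the isotype LZ mean. Over all tested genes these held for 3522 (51.6%) and 3475 (50.9%). The rises were chosen for low isotype DZ and high anti-CD40 DZ values, which favours both counts, so they are a description. For Cd40, isotype DZ cells were at 121 ± 6.37 CPM (SD, n = 4), isotype LZ cells at 248 ± 14.1, anti-CD40 DZ cells at 420.2 ± 54.0 and anti-CD40 LZ cells at 812 ± 59.6. For Myc the same groups were at 21.9 ± 5.84, 32.5 ± 13.0, 104 ± 40.4 and 269 ± 57.7 CPM. The SD ranges of the isotype groups overlap for Myc and do not for Cd40. For Nfkbia they were at 270.3 ± 23.5, 752 ± 79.5, 1675 ± 384 and 3396 ± 407 CPM, and for Irf4 at 18.9 ± 4.61, 46.2 ± 9.82, 158 ± 53.0 and 396 ± 73.8 CPM. In these 4 genes the order of the means was isotype DZ, isotype LZ, anti-CD40 DZ and anti-CD40 LZ.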

How the data were processed

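RNA of sorted DZ and LZ B cells was barcoded at reverse transcription, pooled and amplified by in vitro transcription, per the labels. The authors deposited raw counts per gene for 16 libraries, all of which were used. Per the submitters' processing notes, cutadapt, STAR, HTSeq and DESeq2 were used with the build mm10, with no versions. The name of the deposited table calls them UMI counts, and whether counting used strand is not given in the sources used here. The deposited log2 fold changes and the deposited adjusted p-values of the DZ contrast served only to count shared calls: the authors' deposited table holds 190 genes at an adjusted p under 0.05 (174 higher, 16 lower), which include 151 of the 153 rises and 9 of the 10 falls.

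The analysis used edgeR 4.0.16 under R 4.3.3: filterByExpr (minimum count 10), TMM factors, robust quasi-likelihood fits with 4 group means over 16 libraries, contrasts for each zone and for their difference, and Benjamini-Hochberg adjustment over 6824 genes at 0.05. The biological coefficient of variation was 24.6%. Depth was 493131 to 1473415 counts, and 97.9 to 98.9% of counts were in tested genes. The fit was tested on simulated data. Exact permutation tests used 70 arrangements (Python 3.11.15, SciPy 1.17.1, NumPy 2.4.6, pandas 2.3.3), and figures Matplotlib 3.10.9. Positions are from GENCODE vM21 (GRCm38) and promoter windows from RefSeq (GRCm38.p6).

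The members, the gene lists and the tests were chosen with earlier results of these data known. The text names Myc, Cd40 and other set genes, the largest changes with no overlap and a mean of at least 20 CPM, the members of lists with the smallest adjusted p, and groups or further list members chosen after their values were seen. Alternatives were RLE and upper quartile factors, no or a stricter low-count filter, DESeq2 1.42.0, limma-voom (limma 3.58.1), only the DZ libraries, a replicate block, and libraries left out. The fit without the 3 shallowest DZ libraries was chosen after seeing the data. One further gene is not reported here.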

Additional observations from a re-analysis of the deposited data

Results flagged for a closer look

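In groups of 4 libraries, a library was singled out when its distance from the nearest other took up more of the group's range than Dixon's critical ratio for 4 values. Chance marks about 1 group in 20, and 9 of 202 groups of named genes were marked, all of them isotype DZ groups. Isotype DZ library 4 was low for Timm9 at 40.2 CPM (48.6 to 49.8). It was high for Cxcr4 at 389.7 CPM (181 to 182) and for Cep250, a centrosomal gene, at 85.5 CPM (58.1 to 60.8). Isotype DZ library 3 was low for Bach2 at 125 CPM (215 to 233), Gins2 at 84.1 CPM (111 to 115), Il12a at 6.01 CPM (11.1 to 11.3) and Mettl1, a tRNA methyltransferase gene, at 16 CPM (28.4 to 28.9). It was high for S1pr2 at 659 CPM (497 to 511). Isotype DZ library 2 was low for Foxo1 at 132 CPM (139.8 to 141).

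Cacna1i, which encodes a T-type calcium channel subunit, was the gene that passed the test of a zone difference. The difference of its log2 changes, DZ minus LZ, was 4.22 (edgeR, adjusted p = 0.0388). It was at 42.9, 38.5, 41.1 and 51.5 CPM in isotype DZ libraries and 21.9, 26.7, 43.4 and 24.6 CPM in anti-CD40 DZ libraries (log2 change -0.60, adjusted p = 0.453). In LZ libraries it went from 24.1 ± 4.82 to 0.564 ± 1.13 CPM (SD, n = 4), so that the fitted fold rests on almost no counts after anti-CD40. No gene passed for a zone difference without libraries numbered 4, nor in 12 of the 16 fits without 1 library.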

How the results depend on the processing

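The count of 153 DZ rises was 124 to 204 under other factors, filters, tools and library choices, except 90 without the 3 shallowest DZ libraries and 333 with the replicate number as a block (78.0% of calls higher, against 93.9%). Leaving out 1 library gave 98 to 172 rises, lowest without anti-CD40 DZ library 2. The 10 falls became 5 with no low-count filter, 22 with DESeq2, 19 with limma-voom, 6 with only the DZ libraries, 18 without libraries numbered 4, 3 without the 3 shallowest and 94 with the replicate block. Leaving out 1 library gave 0 to 13 falls. The 1 gene with a zone difference became 2 with upper quartile factors, 38 with DESeq2, 107 with the replicate block (6 of them among the 163 genes called in the DZ) and 0 without libraries numbered 4, and leaving out 1 library gave 0 to 2. The LZ genes changed after anti-CD40, 1302 in all, became 2013 with the replicate block. The cause was not tested.

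Replicate numbers were not taken to pair the DZ libraries, because the deviations of same-numbered libraries correlated at 0.52, 0.17, -0.21 and 0.58, below 0 for number 3; libraries numbered 1 and 4 each matched their own number best. Of 91 named genes that passed, 55 passed in every setting and none reversed. Depth limits genes of a few CPM, such as Cd70, Tnfrsf8 and Ccnd2.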
